A study of Mus musculus with 6 samples.

Results

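The miR-15/16 family, with its relatives miR-195 and miR-497, was followed in mouse kidney after chronic intermittent hypoxia (CIH), the repeated loss and return of oxygen that is used to model obstructive sleep apnea. Its members were taken by name from the deposited count table, which holds 495 mature miRNAs. All 5 names were present, namely mmu-miR-15a-5p, mmu-miR-15b-5p, mmu-miR-16-5p, mmu-miR-195a-5p and mmu-miR-497a-5p. Small RNA of kidney was sequenced in 3 CIH libraries and 3 Control libraries. The CIH group was male balb/c mice kept for 8 weeks in chambers where nitrogen brought oxygen down to 6% within 60 seconds and reoxygenation returned it to 21% within another 60 seconds, with 30 cycles per hour for 8 hours a day. The Control group was male balb/c mice that received room air in the chamber throughout. The sources used here give neither the age of the mice nor whether each library came from its own mouse, and a p-value therefore measures no more than the spread among the 6 libraries. These are bulk samples, in which fewer cells of a type cannot be told apart from less of a miRNA per cell.

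miRNAs are short RNAs that guide silencing proteins to mRNAs, and base pairing by the seed, bases 2 to 8 of the miRNA, does most to choose the targets. miRNAs with the same seed form a family. The miR-15/16 family is best known as a brake on the cell cycle, since its targets include D-type and E-type cyclins, their kinases and the survival protein BCL2. Members rise as many tissues mature and cells leave the cycle.

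The 5 members share the seed AGCAGCA and differ mostly in their later bases. The mature sequences are shown to make this visible, from RefSeq on GRCm38.p6, 5′ to 3′, with the seed in capitals.
mmu-miR-16-5p: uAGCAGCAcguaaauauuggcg
mmu-miR-195a-5p: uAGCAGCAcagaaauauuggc
mmu-miR-497a-5p: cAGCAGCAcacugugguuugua
mmu-miR-15a-5p: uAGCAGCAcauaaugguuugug
mmu-miR-15b-5p: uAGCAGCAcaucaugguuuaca
mmu-miR-16-5p and mmu-miR-195a-5p are the closest pair, with 19 of 21 compared bases identical and the substitutions G10A and U11G, written as the base of mmu-miR-16-5p, the position from the 5′ end and the base of mmu-miR-195a-5p. mmu-miR-15a-5p and mmu-miR-15b-5p share 18 of 22 bases. mmu-miR-497a-5p starts with another base and shares 11 of 22 bases with mmu-miR-16-5p. The sources used here do not give the mismatches that the alignment allowed, and reads of close members may be split between them. Of the 413 names of the table that matched a RefSeq mature miRNA, 1 more had this seed, mmu-miR-322-5p.

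The members come from 3 pairs of neighbouring hairpins. Mir15a at chr14:61632027-61632110 and Mir16-1 at chr14:61631880-61631972 lie on the minus strand with 54 bases between them, both within the noncoding gene Dleu2 (GENCODE M21 on GRCm38). Mir15a is intronic there, and Mir16-1 overlaps an exon of at least 1 Dleu2 transcript. Mir15b at chr3:69009772-69009835 and Mir16-2 at chr3:69009902-69009996 lie in an intron of Smc4, which encodes a condensin subunit needed to fold chromosomes at mitosis, on the same strand and 66 bases apart. Mir497 at chr11:70234717-70234800 and Mir195a at chr11:70235042-70235135 lie on the plus strand 241 bases apart, with no host gene annotated over them. Both Mir16 hairpins give the same 5p sequence, so mmu-miR-16-5p is listed at 2 entries. Their counts differed by 0.88% to 1.05% in CIH libraries and by 1.22% to 1.41% in Control libraries, and the entry with the higher total was used. Reads of the 5p strand cannot be assigned to either hairpin.

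Library totals after 1 entry was kept for each name were 5905653 to 7622445 counts in CIH and 5431797 to 7741499 counts in Control. Levels are given in CPM, the count of a miRNA relative to its library total after scaling by TMM, edgeR's normalization. The tissue label held. By mean level over the 6 libraries, 3 tubule-rich miRNAs, mmu-miR-10a-5p, mmu-miR-30a-5p and mmu-miR-192-5p, were the 3 most abundant of the 495. The 7 listed tubule miRNAs summed to 284123 to 315591 CPM in CIH and 299625 to 369739 CPM in Control. Of these, 5 had a log2 fold change below 0 (median -0.064), and 1 was lower in every CIH library, where 7.27% of all miRNAs were. The 6 markers of endothelium and smooth muscle summed to 104077 to 112194 CPM in CIH and 101268 to 117337 CPM in Control. Of 6 markers of other organs, 5 were in the table, and their summed level was 443 to 538 CPM in CIH and 394 to 498 CPM in Control. All 5 had a log2 fold change above 0, from 0.043 to 0.86 with a median of 0.22, and 0 of them reached an unadjusted p under 0.05 by edgeR. Their part in the results was not tested.

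mmu-miR-16-5p, the most abundant member, had nearly the same mean in both groups. It stood at 1774, 1807 and 1833 CPM in CIH kidneys, against 1807, 1658 and 1952 CPM in Control kidneys. The CIH values lay inside the Control range. Its mean was 1805 ± 29.6 CPM in CIH and 1806 ± 147 CPM in Control (SD, n = 3 each), which placed it at position 58 of 495 by abundance. The log2 fold change was -0.00072, with a 95% interval from -0.23 to 0.23 (adjusted p = 0.998, edgeR, quasi-likelihood). This interval of mmu-miR-16-5p corresponds to ratios between 0.853 and 1.17. Its sign has no meaning at this size and turned in 10 of 17 other settings, library totals without TMM among them.

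mmu-miR-497a-5p, from the chromosome 11 pair, had lower values in CIH, with the largest difference of the 5 when all libraries were used. Without Control replicate 2 the log2 fold change of mmu-miR-195a-5p was larger in size, at -0.33, against -0.26 for mmu-miR-497a-5p. mmu-miR-497a-5p stood at 123, 119 and 131 CPM in CIH kidneys, against 149, 161 and 149 CPM in Control kidneys. Every CIH library lay below every Control library. The mean was 124 ± 6.20 CPM in CIH and 153 ± 6.97 CPM in Control (SD, n = 3 each). The log2 fold change was -0.30 (standard error 0.12, 95% interval -0.56 to -0.045), a ratio of 0.811. Its unadjusted p was 0.026 and its adjusted p over all 495 miRNAs was 0.58 by edgeR, so it did not pass the test. The unadjusted p was 0.073 without CIH replicate 1, 0.072 without CIH replicate 2, 0.053 without Control replicate 2 and 0.102 with library totals in place of TMM, in each case with lower values in CIH (edgeR). Among all miRNAs tested, 7.88% reached an unadjusted p under 0.05, 12.5% had groups that did not overlap and 7.27% had every CIH library below every Control library. mmu-miR-497a-5p was the 1 member of 5 with either property, and 0 of the 5 lay higher in every CIH library, where 5.25% of all miRNAs did.

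mmu-miR-195a-5p, made next to it, averaged lower in CIH as well, but the groups overlapped. It stood at 480, 534 and 549 CPM in CIH kidneys, against 628, 540 and 679 CPM in Control kidneys. CIH replicate 3 lay above Control replicate 2, and the other CIH libraries lay below all Control libraries. The mean was 521 ± 36.3 CPM in CIH and 616 ± 70.1 CPM in Control (SD, n = 3 each). The log2 fold change was -0.24 (standard error 0.12, 95% interval -0.51 to 0.027, adjusted p = 0.71 from edgeR). Its unadjusted p was 0.073 with all libraries and 0.014 without Control replicate 2, from the same test.

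**Figure D1:**
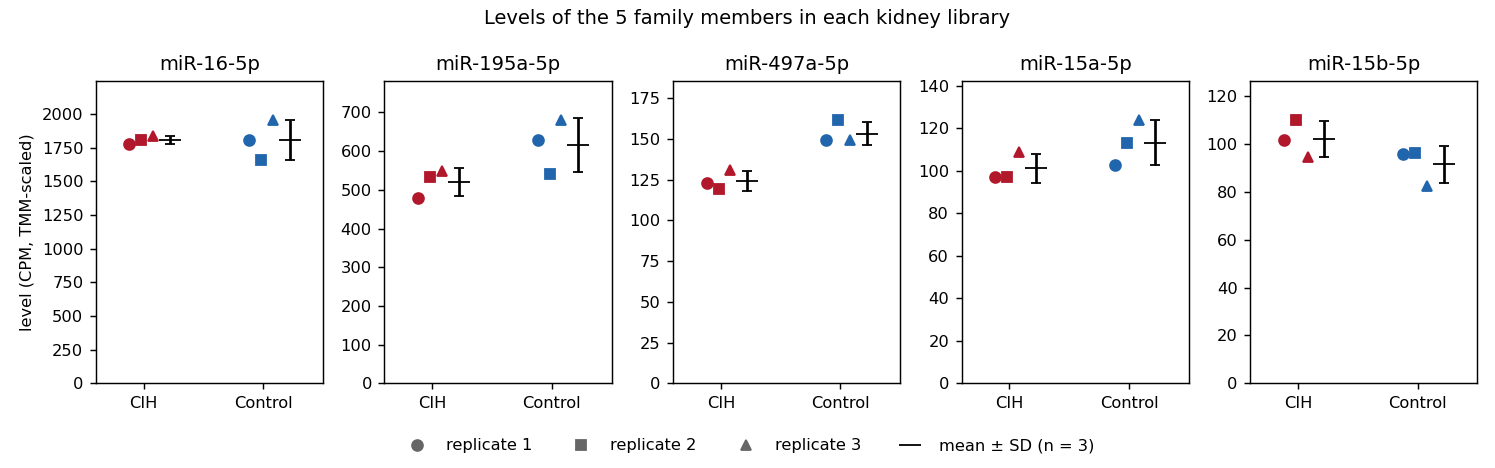
TMM-scaled level in CPM (vertical axes, each from 0) of the 5 members in 3 CIH and 3 Control libraries, with symbols for replicates and bars for mean ± SD (n = 3). The groups do not overlap for miR-497a-5p, with 119 to 131 CPM in CIH and 149 to 161 CPM in Control, and overlap for the other 4.

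The scarcer members of the Dleu2 and Smc4 pairs differed in sign. mmu-miR-15a-5p stood at 97.3, 97.1 and 109 CPM in CIH kidneys, against 103, 113 and 124 CPM in Control kidneys. CIH replicates 1 and 2 lay below all Control libraries, and CIH replicate 3 lay within their range. Its mean was 101 ± 6.81 CPM in CIH and 113 ± 10.4 CPM in Control (SD, n = 3 each), with a log2 fold change of -0.16 (95% interval -0.45 to 0.12, adjusted p = 0.81 from edgeR). mmu-miR-15b-5p stood at 101, 110 and 94.6 CPM in CIH kidneys, against 95.5, 96.2 and 82.5 CPM in Control kidneys. CIH replicates 1 and 2 lay above all Control libraries, and CIH replicate 3 lay within their range. Its mean was 102 ± 7.54 CPM in CIH and 91.4 ± 7.71 CPM in Control (SD, n = 3 each), with a log2 fold change of 0.16 (95% interval -0.13 to 0.44, adjusted p = 0.81 from edgeR). Without Control replicate 3 it was 0.081. Neither passed the test, and their intervals overlap. The 2 are near each other in sequence but come from different chromosomes.

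Of the 5 members, 4 had a negative log2 fold change, 1 of them mmu-miR-16-5p, whose sign turned with the setting, so that 3 of 5 were negative in all 17 alternatives. The median of the 5 was -0.16, beside a median of -0.0030 over all miRNAs tested and 51.7% of them negative. None of the 5 passed an adjusted p of 0.05, and neither did any of the 495 (0%). At an unadjusted p under 0.05, 39 of the 495 and 1 of the 5 were found by edgeR. DESeq2 and limma also called 0 of the 5 at an adjusted p of 0.05. The sum of the 5 members was 2576, 2667 and 2717 CPM in CIH, against 2783, 2569 and 2986 CPM in Control, and the groups overlapped. On the log2 scale the mean of this sum differed by -0.065, CIH minus Control (exact permutation test over the 6 libraries, two-sided, p = 0.5, where 0.1 is the smallest p that 3 against 3 allow). The difference of the sum was -0.12 without Control replicate 2 (exact permutation p = 0.1, again the smallest possible), -0.018 without Control replicate 3 and -0.0022 with library totals in place of TMM.

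In both groups the order of the 5 levels from the top was mmu-miR-16-5p, mmu-miR-195a-5p and mmu-miR-497a-5p, and then the 2 miR-15 members. mmu-miR-15a-5p and mmu-miR-15b-5p did not differ beyond their spread in CIH, where their ranges overlap, and in Control every mmu-miR-15a-5p value lay above every mmu-miR-15b-5p value. The members have 21 or 22 bases. How well each sequence was ligated during library preparation was not tested.

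**Figure D2:**
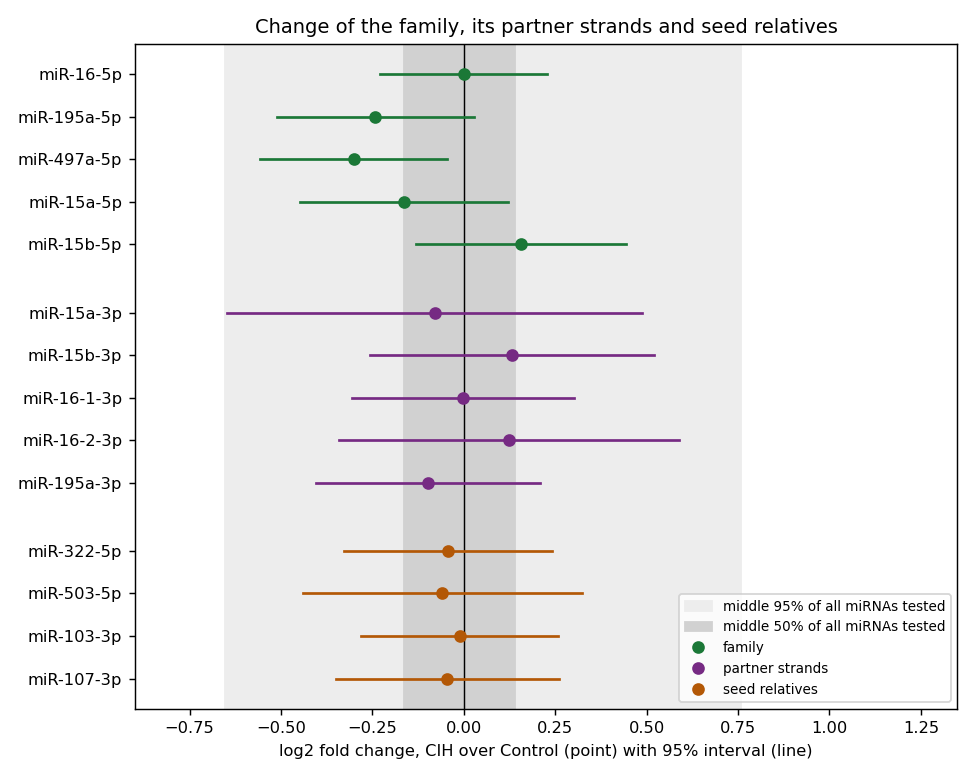
Log2 fold change of CIH over Control (horizontal axis, points) with 95% intervals from edgeR (lines) for the members, their partner strands and miRNAs with a related seed. Shaded bands hold the middle 95% and the middle 50% of all 495 miRNAs, and only the interval of miR-497a-5p, from -0.56 to -0.045, leaves out 0.

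Ratios of 2 members within a library do not depend on how libraries are scaled. Relative to mmu-miR-16-5p, both members of the chromosome 11 pair were lower in every CIH library than in any Control library. The log2 ratio of mmu-miR-195a-5p to mmu-miR-16-5p was -1.89, -1.76 and -1.74 in CIH, against -1.52, -1.62 and -1.52 in Control. The means differed by -0.24, CIH minus Control, and the geometric mean ratio was 0.288 in CIH and 0.340 in Control. The log2 ratio of mmu-miR-497a-5p to mmu-miR-16-5p was -3.85, -3.92 and -3.80 in CIH, against -3.60, -3.36 and -3.71 in Control. CIH replicate 3 and Control replicate 3 came closest, at -3.80 and -3.71. The difference, CIH minus Control, was -0.30 with all libraries, -0.21 without Control replicate 2 and -0.38 without Control replicate 3. mmu-miR-15b-5p relative to mmu-miR-497a-5p also parted the groups, with log2 ratios of -0.28, -0.12 and -0.47 in CIH, against -0.64, -0.75 and -0.85 in Control. These were 3 of 10 pairs compared, each with an exact permutation p of 0.1 (two-sided, the smallest possible) and an adjusted p of 0.33 over the 10. The 3 pairs share members and are not separate observations. Over all pairs of the 495 miRNAs, 13.2% parted the groups in this way.

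Of the ratios between members, that of mmu-miR-195a-5p to mmu-miR-497a-5p is the 1 that compares the hairpins of a single pair. It gave a log2 ratio of 2.07 ± 0.10 in CIH and 2.00 ± 0.23 in Control (SD, n = 3 each). The difference was 0.065, with overlapping groups (exact permutation test, two-sided, p = 0.9), and it was -0.064 without Control replicate 2. The ratios to mmu-miR-16-5p take in both of its hairpins. The log2 ratio of mmu-miR-15a-5p to mmu-miR-16-5p was -4.16 ± 0.077 in CIH and -4.00 ± 0.13 in Control, and that of mmu-miR-15b-5p to mmu-miR-16-5p was -4.15 ± 0.12 in CIH and -4.30 ± 0.23 in Control (SD, n = 3 each). Both overlapped between the groups. The exact permutation p of these ratios was 0.2 for mmu-miR-15a-5p and 0.5 for mmu-miR-15b-5p (two-sided).

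**Figure D3:**
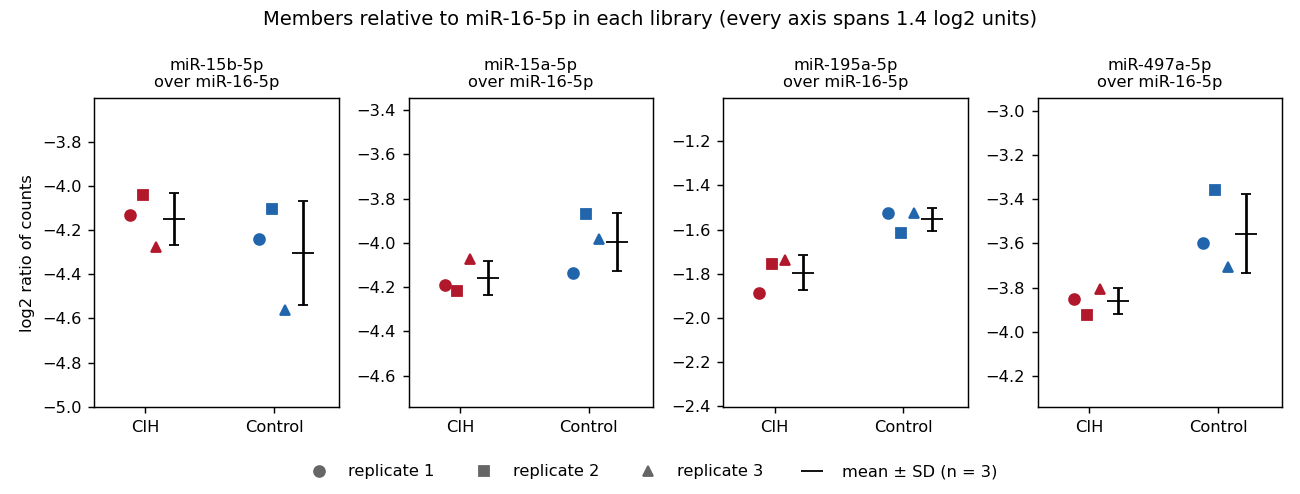
Log2 ratio of counts of 4 members to miR-16-5p (vertical axes, each spanning the same range) in 3 CIH and 3 Control libraries, with bars for mean ± SD (n = 3). The ratios of miR-195a-5p and miR-497a-5p lie lower in every CIH library, and those of the 2 miR-15 members overlap.

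As a share of the counts of the 5 members, mmu-miR-16-5p took 68.9%, 67.8% and 67.5% in CIH libraries, against 64.9%, 64.5% and 65.4% in Control libraries. The lowest CIH share had a 95% Wilson interval from 66.8% to 68.2%, and the highest Control share one from 64.7% to 66.0%. mmu-miR-195a-5p took 18.6% to 20.2% in CIH, against 21.0% to 22.7% in Control, with every CIH share below every Control share. The share of mmu-miR-497a-5p also parted the groups, with 4.46% to 4.83% in CIH and 5.00% to 6.28% in Control. Those of the 2 miR-15 members overlapped. The shares restate the ratios above and are tied by their common total. The intervals cover counting error within a library only, and not the spread among libraries, so they do not measure a difference between the groups. Reads copied by PCR are not separate molecules, so the intervals may be too narrow even for counting error.

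The partner strands were not used to choose the members. Each hairpin also gives a 3p strand, the passenger, which is usually degraded once the 5p strand has been loaded. These 3p sequences are shown because they, unlike the 5p strand, tell the Mir16 hairpins apart, again with bases 2 to 8 in capitals.
mmu-miR-16-1-3p: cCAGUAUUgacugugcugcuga
mmu-miR-16-2-3p: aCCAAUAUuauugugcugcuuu
mmu-miR-15a-3p: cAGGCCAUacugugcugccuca
mmu-miR-15b-3p: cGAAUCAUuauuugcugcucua
mmu-miR-195a-3p: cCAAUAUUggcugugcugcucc
mmu-miR-16-1-3p, from the Dleu2 hairpin, stood at 108, 101 and 99.96 CPM in CIH kidneys, against 102, 89.8 and 118 CPM in Control kidneys. mmu-miR-16-2-3p, from the Smc4 hairpin, had 44, 37 and 35 counts in CIH, against 45, 25 and 30 counts in Control. The ratio of their counts was 19.1 ± 1.37 in CIH and 21.3 ± 4.72 in Control (SD, n = 3 each), with overlapping groups. The strands can differ in how fast they are lost, so this ratio does not give the share of mmu-miR-16-5p that each hairpin made.

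mmu-miR-15b-3p was the most abundant partner relative to its 5p strand. It stood at 38.7, 30.7 and 40.2 CPM in CIH kidneys, against 28.1, 38.8 and 33.2 CPM in Control kidneys. Its 5p strand had 2.80 times as many counts in CIH and 2.75 times as many in Control (geometric means). The corresponding ratio of mmu-miR-15a-5p to mmu-miR-15a-3p was 20.1 in CIH and 21.1 in Control, on 24 to 45 counts of the 3p strand in a CIH library and 29 to 39 in a Control library. mmu-miR-195a-3p stood at 54.3, 56.4 and 61.6 CPM in CIH kidneys, against 59.5, 56.1 and 68.7 CPM in Control kidneys, and the groups overlapped. Of the 5 partner strands in the table, 0 passed the test and 0 reached an unadjusted p under 0.05 by edgeR, with log2 fold changes from -0.098 for mmu-miR-195a-3p to 0.13 for mmu-miR-15b-3p. DESeq2 and limma called 0 of them at either threshold. mmu-miR-497a-3p was not in the table.

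The balance of the strands was compared in 5 ratios. The log2 ratio of mmu-miR-195a-5p to mmu-miR-195a-3p was 3.14, 3.24 and 3.15 in CIH, against 3.40, 3.27 and 3.30 in Control. Every CIH library lay below every Control library, by a mean of 0.14 (CIH minus Control -0.14, exact permutation test, two-sided, p = 0.1, adjusted p = 0.5 over the 5 ratios). Over the 137 miRNAs of the table with a 5p and a 3p strand of the same name, 8.03% of the ratios had groups that did not overlap. The other 4 overlapped between groups, with exact permutation p of 0.6 to 0.9 and an adjusted p of 0.9 (two-sided). The difference for mmu-miR-16-5p over mmu-miR-16-2-3p was -0.14 with all libraries, -0.26 without Control replicate 1 (exact permutation p = 0.1, the smallest possible) and -0.010 without Control replicate 3. For mmu-miR-16-5p over mmu-miR-16-1-3p the mean log2 ratio was 4.13 ± 0.085 in CIH and 4.13 ± 0.080 in Control (SD, n = 3 each).

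**Figure D4:**
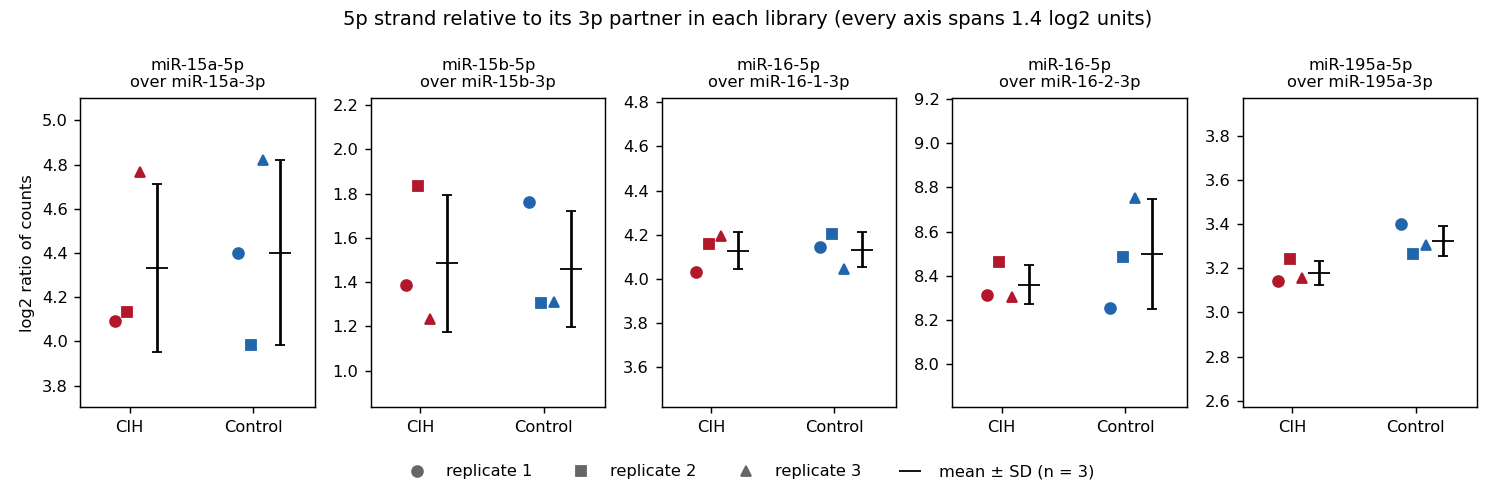
Log2 ratio of the counts of each 5p strand to its 3p partner (vertical axes, each spanning the same range) in 3 CIH and 3 Control libraries, with bars for mean ± SD (n = 3). The groups part only for miR-195a, at 3.14 to 3.24 in CIH and 3.27 to 3.40 in Control.

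Other miRNAs of the table carry the same or nearly the same seed. They are shown because they can meet some of the same targets, with bases 2 to 8 in capitals.
mmu-miR-322-5p: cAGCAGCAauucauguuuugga
mmu-miR-503-5p: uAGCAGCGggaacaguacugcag
mmu-miR-103-3p: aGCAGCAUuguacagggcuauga
mmu-miR-107-3p: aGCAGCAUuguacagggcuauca
mmu-miR-322-5p, a miRNA of the X chromosome that also slows the cell cycle, stood at 183, 164 and 163.5 CPM in CIH kidneys, against 173, 156 and 197 CPM in Control kidneys. mmu-miR-503-5p, made from the neighbouring hairpin, averaged 22.9 ± 4.15 CPM in CIH and 23.9 ± 0.736 CPM in Control (SD, n = 3 each). mmu-miR-103-3p and mmu-miR-107-3p, miRNAs linked to insulin sensitivity, carry the same letters shifted by 1 base. They averaged 5382 ± 533 and 1769 ± 123 CPM in CIH, against 5427 ± 626 and 1825 ± 313 CPM in Control (SD, n = 3 each). The log2 fold changes of these 4 ran from -0.059 to -0.012, the groups of each overlapped, and 0 passed the test or reached an unadjusted p under 0.05 by edgeR. Of 10 listed relatives 5 were in the table. The last, mmu-miR-497b, had been listed by its name, but it is read from the strand opposite Mir497, has another seed and holds 101 counts in all. Its log2 fold change was -0.35, the lowest of the 5.

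Other miRNAs that act on the cell cycle were read from 2 lists, and 0 of their members passed the test. Of 18 listed miRNAs that restrain it, 17 were in the table, with a median log2 fold change of -0.0054 and 10 negative values. mmu-let-7f-5p and mmu-let-7g-5p, of the let-7 family that restrains growth genes, were at -0.027 and 0.071, and mmu-miR-26a-5p, which targets Ezh2, was at -0.043. Of the 17, 3 with lower values in CIH reached an unadjusted p under 0.05 by edgeR, where 5.05% of all miRNAs did in that direction. These were mmu-miR-34b-5p at -0.47, mmu-miR-34c-5p at -0.43 and mmu-miR-29b-3p at -0.24. Of 14 listed miRNAs that promote division, mostly from the miR-17 to 92 cluster and its relatives, all were in the table, with a median of -0.050 and 11 negative values. mmu-miR-25-3p, mmu-miR-221-3p and mmu-miR-20a-5p were its most abundant, at 0.16, -0.083 and -0.032. mmu-miR-19a-3p and mmu-miR-19b-3p, both at -0.46, reached an unadjusted p under 0.05 by edgeR. For either list the sign of the median turned when library totals replaced TMM or CIH replicate 2 was left out. The median of the restraining list also turned without CIH replicate 3, to 0.0028, and without Control replicate 2, to 0.18.

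mmu-miR-16-5p is also abundant in red blood cells, so erythroid markers were read beside it. mmu-miR-451a, the main miRNA of red cells, stood at 5098, 4768 and 6164 CPM in CIH kidneys, against 5721, 5453 and 4759 CPM in Control kidneys. mmu-miR-486a-5p stood at 578, 586 and 650 CPM in CIH, against 535, 477 and 386 CPM in Control. Its groups did not overlap, and 5.25% of all miRNAs lay higher in every CIH library. It and mmu-miR-486b-5p were the 2 of 5 markers with an unadjusted p under 0.05 by edgeR (log2 fold changes 0.38 and 0.40). Of all miRNAs, 2.83% reached it in that direction, and 0 of the 5 markers passed the test. The 2 had almost equal counts, may hold the same reads and are not separate observations. mmu-miR-144-3p and mmu-miR-144-5p were at -0.086 and 0.095. The summed level of the 5 erythroid markers, both miR-486 entries included, was 6279 to 7976 CPM in CIH and 5821 to 7236 CPM in Control. The 6 leukocyte markers summed to 3773 to 4838 CPM in CIH and 3775 to 3921 CPM in Control, with mmu-miR-146a-5p, mmu-miR-142a-5p and mmu-miR-142a-3p the most abundant, and 0 of 6 reached an unadjusted p under 0.05. The part of blood in the level of mmu-miR-16-5p was not tested.

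For each member, the miRNAs outside the family that varied most like it over the 6 libraries were read out. Likeness was taken as the root mean square difference of log2(CPM + 0.5) after each miRNA's own mean was removed, over 297 miRNAs outside the family with a mean of at least 10 CPM. mmu-miR-16-5p was nearest to mmu-miR-181a-1-3p at 0.037, mmu-miR-378c at 0.038 and mmu-miR-200b-3p at 0.041. mmu-miR-195a-5p was nearest to mmu-miR-139-5p at 0.048, mmu-miR-99a-5p at 0.049 and mmu-miR-24-2-5p at 0.081. mmu-miR-497a-5p was nearest to mmu-miR-125b-1-3p at 0.040, mmu-miR-181a-2-3p at 0.064 and mmu-miR-181d-5p at 0.075. mmu-miR-15a-5p was nearest to mmu-miR-30b-5p at 0.050, mmu-miR-10a-5p at 0.058 and mmu-miR-10b-5p at 0.060. mmu-miR-15b-5p was nearest to mmu-miR-27a-3p at 0.047, mmu-miR-27b-3p at 0.060 and mmu-miR-181a-5p at 0.060. These are descriptions over libraries that share their depth and scaling. The search left out the family, so it does not show whether members resembled each other. How near the closest of 297 miRNAs would lie by chance was not tested.

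**Figure D5:**
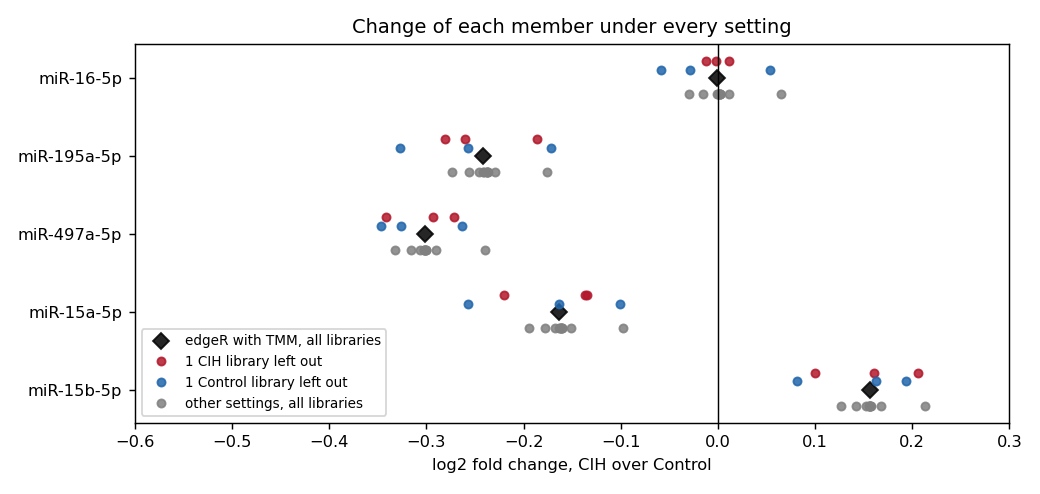
Log2 fold change of CIH over Control (horizontal axis) of each member from edgeR with all 6 libraries (diamonds), with 1 library left out (coloured points) and under the other settings (grey points). miR-195a-5p, miR-497a-5p and miR-15a-5p stay below 0 and miR-15b-5p above 0 in all 17 alternatives, and miR-16-5p lies on both sides. The alternative without a filter has the same values as the edgeR fit with all 6 libraries.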

How the data were processed

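Small RNA of kidney was sequenced. According to the submitters' processing notes, cutadapt and Bowtie were used. The authors deposited raw read counts for 584 entries, 1 or more for each of 495 mature miRNAs. The sources used here give no versions, miRBase release or genome build. Of the entries of each of 44 repeated names, the most abundant was used. A test needed a nonzero count in 3 or more libraries, which left out none of the 495. CIH was compared with Control, as grouped by the titles, by the quasi-likelihood test of edgeR 4.0.16 (R 4.3.3) after TMM scaling, unpaired and without covariates, with Benjamini-Hochberg adjustment over all miRNAs. Sums and ratios (counts + 0.5) were compared by exact permutation of the libraries. Positions of hairpins came from GENCODE M21 and mature sequences from RefSeq, both on GRCm38. Alternatives used DESeq2 1.42.0, limma 3.58.1, other scalings, pseudocounts, filters and treatments of repeated entries, a replicate block, and each library left out. The scripts were tested on simulated counts. The members and lists were chosen with earlier results of these data known. Named miRNAs are the members, their partner strands, seed relatives and erythroid markers, the 3 most abundant of each other list with any at an unadjusted p under 0.05, and the 3 nearest to each member. Markers of endothelium and of other organs were read as a check only.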

Additional observations from a re-analysis of the deposited data

How the results depend on the processing

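Counts of calls at an adjusted p of 0.05 were 0 in all 17 alternatives, for the 495 miRNAs, the members and the partner strands. The alternatives are not separate checks. The alternative without a filter repeats the edgeR fit with all libraries, since the filter left out none of the 495. The limma fits differ from each other only in pseudocount. At an unadjusted p under 0.05, edgeR found 39 of the 495 with all libraries, 24 with a filter at a mean of 10 CPM, and between 21 (without CIH replicate 2) and 67 (without Control replicate 2) when 1 library was left out. mmu-miR-15a-5p, mmu-miR-195a-5p and mmu-miR-497a-5p stayed negative and mmu-miR-15b-5p positive in all 17, from -0.26 to -0.098, -0.33 to -0.17, -0.35 to -0.24 and 0.081 to 0.21 in that order (log2 fold changes). mmu-miR-16-5p lay at -0.058 to 0.053 with 1 library left out, 0.011 by DESeq2, 0.065 with library totals, 0.00030 with TMM without the 10 most abundant miRNAs, 0.0024 by limma with a pseudocount of 0.5, 0.1 or 1, and 0.00059 with the entry of the lowest total. mmu-miR-16-1-3p lay at -0.092 to 0.099 with 1 library left out, 0.0095 by DESeq2, 0.066 with library totals, and 0.0062, 0.0063 and 0.0062 by limma. With 1 library left out, mmu-miR-15a-3p lay at -0.22 to 0.14 and mmu-miR-15b-3p at -0.0058 to 0.25. With library totals, which put the median of all miRNAs at 0.061, list medians were 0.049 for the restraining and 0.010 for the promoting miRNAs. For the 5 listed relatives, which include mmu-miR-497b with its other seed, the median was 0.011. With 1 library left out they lay at -0.095 to 0.18 for the restraining, -0.088 to 0.015 for the promoting, -0.070 to 0.23 for the erythroid and -0.084 to 0.058 for the leukocyte miRNAs. Differences in log2 strand ratio lay at -0.29 to 0.14 for miR-15a, -0.15 to 0.18 for miR-15b and -0.047 to 0.044 for mmu-miR-16-5p over mmu-miR-16-1-3p, the last at 0.0018 with the entry of the lowest total, and at -0.26 to -0.010 for mmu-miR-16-5p over mmu-miR-16-2-3p. The difference in the summed family level lay at -0.12 to -0.018 with 1 library left out. The difference in the log2 ratio of mmu-miR-15a-5p to mmu-miR-195a-5p, CIH minus Control, lay at -0.0093 to 0.17. That in the log2 ratio of mmu-miR-195a-5p to mmu-miR-497a-5p lay at -0.064 to 0.16. The cause of these turns was not tested. Same-numbered libraries did not deviate together (correlations -0.060, -0.15 and -0.031). Correlations of libraries with different numbers ran from -0.13 to 0.19, so values of this size cannot tell whether the numbers pair the libraries. With a replicate block 0 of 495 passed the adjusted and 32 the unadjusted threshold, mmu-miR-16-5p was at 0.0024, mmu-miR-16-1-3p at 0.0062 and mmu-miR-497a-5p at -0.30 (unadjusted p = 0.059 by edgeR). Depth limits the 3p strands of miR-15a and Mir16-2 most, with 24 to 45 and 35 to 44 counts in CIH and 29 to 39 and 25 to 45 counts in Control libraries.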
